A study of Mus musculus with 12 samples.

Results

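The glucocorticoid-induced genes described here are Fkbp5, Tsc22d3, Per1, Zbtb16, Sgk1, Pdk4, Plin4, Mt1 and Mt2, together with Nr3c1, the gene of the glucocorticoid receptor. These 10 genes were chosen by name from a table of 49315 genes, and all 10 were among the 18295 genes that passed the filter on low counts. The names were selected with the levels in these mice already known, and which values led to the choice is not stated. Genotype differences and co-variation of the members are therefore given as a description, with no test over the group.

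Bulk RNA sequencing was performed on dorsal root ganglia (DRG) from 12 mice at 10 months of age, with 1 library per mouse from 8 ganglia pooled and flash frozen. The 6 Nf2 mice carried Postn-Cre and Nf2 flox/flox, and the 6 DKO mice carried in addition Fak1 flox/flox (the gene annotated as Ptk2). Each genotype held 3 males and 3 females per the labels. Postn-Cre deletes floxed genes in Schwann cells and their precursors, and whether other cells of the ganglion keep both genes was not measured here. By this design all 12 mice lacked Nf2 in the Schwann cell lineage, and no wild-type mouse was among the samples. In bulk tissue, fewer cells of a type and less RNA per cell cannot be told apart.

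Glucocorticoids such as corticosterone enter cells and bind the receptor NR3C1, which is held in the cytoplasm by heat shock proteins and immunophilins. The bound receptor moves to the nucleus, where it binds palindromic DNA elements and raises transcription of target genes, and it represses many inflammatory genes. Corticosterone in rodents follows a daily rhythm and rises with stress, handling and fasting.

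Libraries held 21129191 to 41250329 counts, and values are given as CPM, counts per 1000000 counts of the library. The summed CPM of 8 sensory neuron markers lay between 7102 and 10410, and that of 6 Schwann cell markers between 4984 and 7527, so markers of the labelled tissue were present in each library. Ptk2 lay between 65.8 and 75.5 CPM in Nf2 mice and between 46.5 and 76.0 in DKO mice, with the lowest value in DKO mouse 886. Xist and Ddx3y in mouse 702, labelled male, were at 496 and 0.525 CPM, within the ranges of the mice labelled female. Mouse 886, a DKO mouse labelled female, was the highest or the lowest of the 12 in each of the 10 members, and results on the members are given with and without it.

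The promoters below are shown because glucocorticoids, metals and the clock are known to act through motifs of these kinds. Whether the matches marked are sites in use in these genes was not tested. RefSeq windows of GRCm38.p6, running from 250 bases before to 50 bases after a start site, were found for 8 of the 10 genes, with 16 windows in all. Zbtb16 and Nr3c1 had no window. Printed are the 250 bases before the start, in lower case, with motif matches in capitals. The motifs searched on both strands were the glucocorticoid response element GNACANNNTGTNC, the metal response element TGCACNC or TGCGCNC, and the E-box CACGTG.
Mt2, chr8:94172368-94172617, plus strand: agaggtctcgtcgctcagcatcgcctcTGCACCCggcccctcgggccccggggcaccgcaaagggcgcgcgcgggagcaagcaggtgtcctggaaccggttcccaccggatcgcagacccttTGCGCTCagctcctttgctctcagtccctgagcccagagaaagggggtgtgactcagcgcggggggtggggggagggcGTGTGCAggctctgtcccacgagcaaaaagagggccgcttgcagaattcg
Mt1, chr8:94178839-94179088, plus strand: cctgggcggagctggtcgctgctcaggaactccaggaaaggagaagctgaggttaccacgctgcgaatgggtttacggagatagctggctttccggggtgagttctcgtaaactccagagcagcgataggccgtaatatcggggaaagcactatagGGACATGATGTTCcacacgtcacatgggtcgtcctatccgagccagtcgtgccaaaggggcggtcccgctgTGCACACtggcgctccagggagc
Sgk1, chr10:21993640-21993889, plus strand: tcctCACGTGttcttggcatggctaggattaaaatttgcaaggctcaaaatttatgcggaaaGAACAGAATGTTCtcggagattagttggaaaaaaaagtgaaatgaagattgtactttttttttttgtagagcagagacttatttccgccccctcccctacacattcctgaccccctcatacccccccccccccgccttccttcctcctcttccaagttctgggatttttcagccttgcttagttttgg
Per1, chr11:69098699-69098948, plus strand: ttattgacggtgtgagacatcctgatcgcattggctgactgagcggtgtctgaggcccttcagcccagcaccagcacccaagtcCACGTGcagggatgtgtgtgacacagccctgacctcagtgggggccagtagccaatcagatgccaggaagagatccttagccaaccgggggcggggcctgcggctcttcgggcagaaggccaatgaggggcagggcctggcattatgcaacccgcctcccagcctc

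The glucocorticoid element was present in 2 of the 16 windows, in Mt1 at 94 bases before the start and in 1 of the 6 windows of Sgk1 at 188 bases before it. Of 32851 promoter windows of the genome, 127 held it, or 0.387%. Mt2 held 3 matches to the metal element, at 223, 128 and 50 bases before the start, and Mt1 held 1 at 23 bases, as did the second window of Per1 at 69 bases. Such a match was found in 21.4% of all windows. The E-box, the site of the clock activators CLOCK and ARNTL, was found in 6.02% of all windows and, among the members, in 1 of 2 windows of Per1, in the Sgk1 window above at 246 bases before the start, and in the window of Fkbp5 at 169 bases. A match is a string of letters in the window and not a measurement of binding, and sites further away were not searched.

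Nr3c1 (ENSMUSG00000024431, chr18:39410545-39519421) encodes the receptor itself and varied little. Gene positions are on GRCm38 with GENCODE M21. Its level was 110 to 145 CPM in Nf2 mice with a median of 128, and 93.9 to 140 CPM in DKO mice with a median of 123. The genotypes overlapped, and the lowest of the 12 values was that of mouse 886. Mouse 886 was the lowest of 12 in 12.3% of all genes tested.

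Fkbp5 (ENSMUSG00000024222, chr17:28399094-28517527) encodes an immunophilin that binds the receptor complex, lowers its affinity for hormone and is itself induced by it. It lay between 37.2 and 58.3 CPM in Nf2 mice with a median of 51.3, and between 43.9 and 146 CPM in DKO mice with a median of 51.2. Mouse 886 had 146 CPM, 2.25-fold above the next mouse, DKO mouse 917 with 65.0 CPM. The other 5 DKO mice ended at those 65.0 CPM and overlapped the Nf2 mice, whose lowest value was in mouse 649.

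Tsc22d3 (ENSMUSG00000031431, chrX:140539528-140600659) encodes GILZ, a leucine zipper protein that carries part of the anti-inflammatory action of glucocorticoids. It lay at 121 to 267 CPM in Nf2 mice with a median of 157 and 117 to 452 CPM in DKO mice with a median of 176. Mouse 886 had 452 CPM and Nf2 mouse 649 was second with 267 CPM. The lowest value, 117 CPM, was also in a DKO mouse, 914.

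Per1 (ENSMUSG00000020893, chr11:69095217-69109960) encodes a repressor of the circadian clock that glucocorticoids also induce. It lay between 20.1 and 79.0 CPM in Nf2 mice with a median of 32.8, and between 24.4 and 102 CPM in DKO mice with a median of 50.6. The 3 highest mice were DKO mouse 886 (102 CPM), Nf2 mouse 649 (79.0 CPM) and DKO mouse 917 (72.9 CPM), so both genotypes were among them.

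Zbtb16 (ENSMUSG00000066687, chr9:48654297-48836222) encodes the zinc finger transcription factor PLZF, which glucocorticoids strongly induce in many cell types. It was low in 10 of the 12 libraries, at 5.37 to 12.4 CPM. The other two were Nf2 mouse 918 with 15.9 CPM and DKO mouse 886 with 59.9 CPM, 3.76-fold above mouse 918. Medians were 7.40 CPM in Nf2 mice and 7.52 in DKO mice. The smallest count behind any member value was that of Zbtb16 in mouse 649, 126 reads.

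Sgk1 (ENSMUSG00000019970, chr10:21882184-21999903) encodes a kinase that promotes sodium transport and cell survival and is rapidly induced by glucocorticoids and mineralocorticoids. It lay between 22.2 and 45.1 CPM in Nf2 mice with a median of 34.9, and between 27.8 and 101 CPM in DKO mice with a median of 37.4. Mouse 886 had 101 CPM and DKO mouse 917 had 61.2 CPM, and the other 4 DKO mice lay within the range of the Nf2 mice.

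Pdk4 (ENSMUSG00000019577, chr6:5483351-5496309) encodes the kinase that inactivates pyruvate dehydrogenase and spares glucose during fasting. It lay between 53.1 and 87.4 CPM in Nf2 mice with a median of 61.3, and between 31.2 and 118 CPM in DKO mice with a median of 47.5. Its highest value was in DKO mouse 886, whereas its 4 lowest values were in DKO mice 914, 885, 887 and 917. The highest of the other 5 DKO mice, 915 with 59.0 CPM, lay within the Nf2 range.

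Plin4 (ENSMUSG00000002831, chr17:56100591-56109803) encodes a perilipin that coats lipid droplets and is induced by glucocorticoids. In Nf2 mice it lay between 6.15 and 11.7 CPM with a median of 7.52, and in 5 DKO mice between 5.97 and 9.50 CPM. Mouse 886 had 136 CPM (3187 reads), 11.6-fold above the second mouse, Nf2 mouse 884. Adipocytes express perilipins, and beside this value the summed CPM of 9 adipocyte markers was 23.2 in mouse 886 and 17.4 to 29.0 over all 12 mice. Of the 9, Lipe, a lipase, was highest of the 12 in mouse 886, at 15.4 CPM against 11.3 to 13.8. In the same mouse Pparg was at 2.51 CPM, Fabp4 at 2.47 and Cfd at 1.62, each within the range of the other mice, and Adipoq (0.639), Retn (0.341), Plin1 (0.128), Cidec (0.128) and Lep (0) were under 1 CPM. The part of adipocytes in the Plin4 level was not tested. The lipid droplet genes Plin2 and Plin3, the latter named after its values were seen, were lowest of the 12 in mouse 886, at 40.1 and 48.1 CPM. Exons of Plin4 share 17 bases with Hdgfl2 on the opposite strand.

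Mt1 and Mt2 encode metallothioneins, small cysteine-rich proteins that bind zinc and copper, and they lie 5513 bases apart (Mt1, ENSMUSG00000031765, chr8:94179082-94180327; Mt2, ENSMUSG00000031762, chr8:94172664-94173568). Mt1 lay between 30.0 and 63.4 CPM in Nf2 mice with a median of 40.9, and between 32.7 and 96.9 CPM in DKO mice with a median of 44.3. Mt2 lay between 13.1 and 34.5 CPM in Nf2 mice with a median of 19.1, and between 13.5 and 65.5 CPM in DKO mice with a median of 18.8. In both genes mouse 886 was highest and mouse 649 second, and the remaining mice of the genotypes overlapped. The longest run of bases that their transcripts share is 20. Mt2 shares 432 exon bases with the antisense gene Gm45774 (1.13 to 6.77 CPM), whose reads cannot be told apart from those of Mt2 without strand, and the strand setting is not given in the sources used here.

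**Figure D1:**
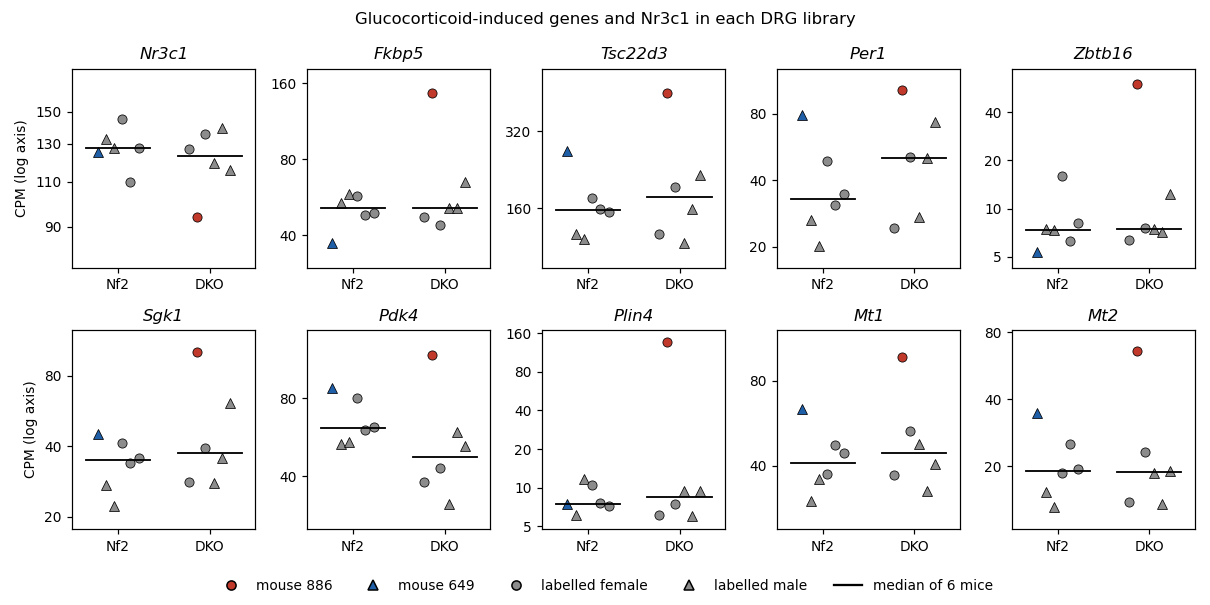
CPM of each gene on a log axis in the 6 Nf2 and 6 DKO mice, 1 point per mouse, with circles for mice labelled female, triangles for mice labelled male and a bar at the median. DKO mouse 886 (red) is the highest point in 9 panels and the lowest in that of Nr3c1, and Nf2 mouse 649 (blue) is the second highest in 5.

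Exon length was taken as all bases covered by any annotated exon of a gene. For Mt1 these 1246 bases are its full annotated span, and Mt2 has 588, so levels per length depend on the annotation. Per exon length, the order of median levels was Tsc22d3 (36.5 CPM per kilobase), Mt1 (34.1), Mt2 (32.0), Nr3c1 (16.6), Pdk4 (16.1), Per1 (7.40), Sgk1 (7.28), Fkbp5 (5.41), Zbtb16 (1.41) and Plin4 (1.30). Ranges over the 12 mice overlapped between all neighbours in this order except Mt2 and Nr3c1, whose lowest and highest values were 22.2 and 18.9 CPM per kilobase. Without mouse 886 the ranges of Fkbp5 and Zbtb16 did not overlap either. The lowest Fkbp5 value was then 3.93 CPM per kilobase (mouse 649) and the highest Zbtb16 value 3.01 (mouse 918). In mouse 886 itself Fkbp5 was at 15.5 and Zbtb16 at 11.3 CPM per kilobase.

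Mouse 886 was the highest of the 12 mice in all 9 induced genes, and it was highest in 13.1% of all genes tested. Scaling by TMM, which corrects library totals for composition, left it highest in 9 of 9 and lowest in Nr3c1. In 3 of the 9 genes (Plin4, Zbtb16 and Fkbp5) the highest mouse was at least 2-fold above the second, which was the case in 0.896% of all genes. In the other 6 the ratio ran from 1.29 in Per1 to 1.90 in Mt2. Among the 11 mice without 886, Nf2 mouse 649 was highest in 5 induced genes (Tsc22d3, Per1, Pdk4, Mt1 and Mt2) and was highest in 19.1% of all genes. The same mouse was lowest of the 12 in Fkbp5 and Zbtb16, and it was lowest in 23.8% of all genes. DKO mouse 917 was highest of the 11 in Fkbp5 and Sgk1, Nf2 mouse 918 in Zbtb16 and Nf2 mouse 884 in Plin4.

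**Figure D2:**
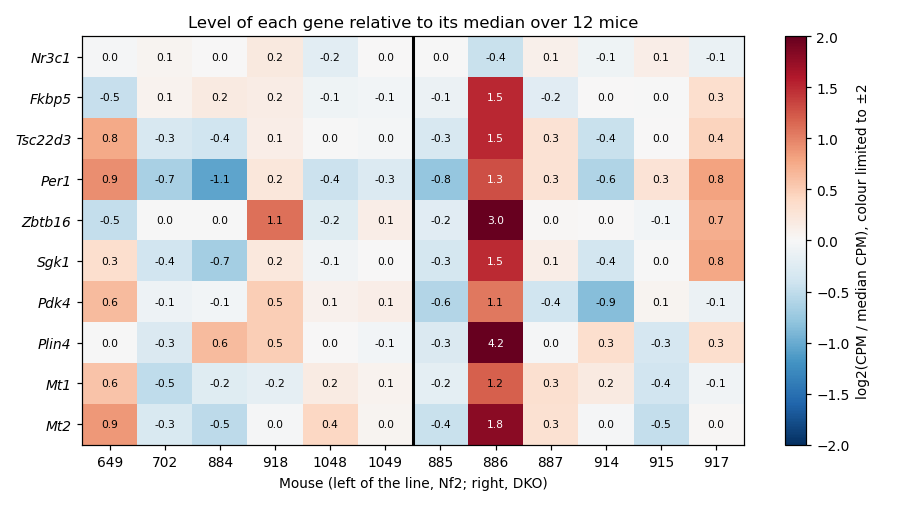
Level of each gene (rows) in each mouse (columns) as log2 of its CPM over its median CPM of the 12 mice, red above and blue below the median, with Nf2 mice left of the line and DKO mice right of it. The column of mouse 886 is above the median in all 9 induced genes, from 1.05 in Pdk4 to 4.17 in Plin4, whereas that of mouse 649 is above it in 6 and below it in Fkbp5, Zbtb16 and Plin4.

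By genotype, none of the 10 genes passed an adjusted p of 0.05 in edgeR's quasi-likelihood test, against 0.94% of all genes tested (172 of 18295), and 1 of the 10 (Plin4) had an unadjusted p under 0.05, against 14.9% of all genes. DESeq2 and limma voom, which called 4.54% and 2.85% of all genes, called 0 of the 10 as well, but DESeq2 gave no adjusted p for Plin4 and Zbtb16. The CPM ranges of Nf2 and DKO mice overlapped for each of the 10, whereas they did not overlap in 1.95% of all genes. Fold changes were positive in 8 genes and negative in Pdk4 and Nr3c1, with a median of 0.36 (log2, DKO minus Nf2) against 0.0047 over all genes. Without mouse 886 the median of the 10 genes was -0.05, and again no member passed, against 0.687% of all genes (127 of 18483).

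Plin4 had the largest difference, 1.76 ± 0.77 (log2, SE; edgeR adjusted p = 0.300), which became -0.15 ± 0.19 without mouse 886. The Plin4 difference was 0.16 with limma voom, 0.48 with the skeletal muscle and 1.06 with the adipocyte marker level as covariate. As a difference of mean log2(CPM + 4) it was 0.51. In mice labelled female alone it was 2.54, and in mice labelled male alone, mouse 702 among them, it was -0.07. Zbtb16 went from 0.97 ± 0.55 to -0.07 ± 0.27 and Fkbp5 from 0.40 ± 0.26 to 0.01 ± 0.12. Tsc22d3 went from 0.32 ± 0.31 to -0.06 ± 0.22, and Mt1 and Mt2 from 0.24 ± 0.25 and 0.27 ± 0.38 to -0.04 ± 0.18 and -0.27 ± 0.24. The signs of 5 of the 8 positive differences therefore changed when this mouse was left out. Sgk1 (0.49 ± 0.30) and Per1 (0.43 ± 0.38) stayed positive at 0.14 ± 0.22 and 0.15 ± 0.36. Pdk4 went the other way, from -0.24 ± 0.27 to -0.59 ± 0.18, where its edgeR adjusted p was 0.167. Nr3c1 was -0.09 ± 0.09 with and -0.03 ± 0.08 without mouse 886.

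**Figure D3:**
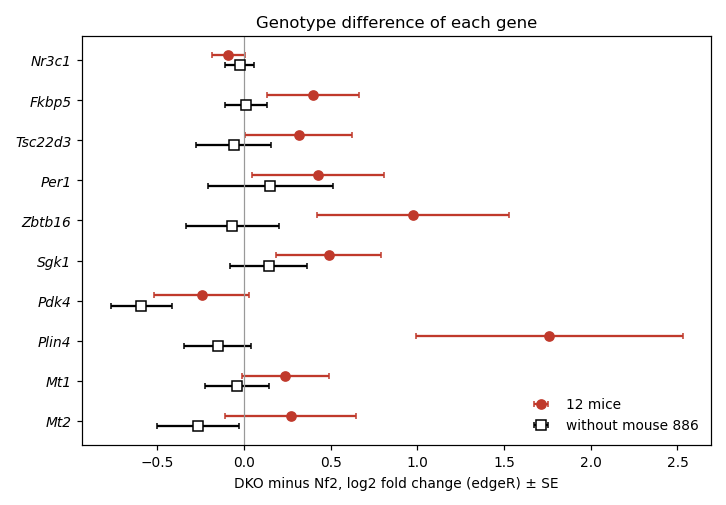
Difference between DKO and Nf2 mice for each gene as log2 fold change from edgeR with its standard error, with all 12 mice (red circles) and without DKO mouse 886 (open squares). The value of Plin4 goes from 1.76 to -0.15 and that of Pdk4 from -0.24 to -0.59.

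The rule that names the genes does not mention sex, although mouse 886 is labelled female and its levels were known when they were chosen. Sex was taken from the labels, so mouse 702 counted as male although its Xist and Ddx3y levels lay within the ranges of the females. With genotype as covariate, none of the 10 genes passed in the edgeR test of males against females. In that test 0.0164% of all genes passed (3 of 18295). Differences ran from -1.32 ± 0.77 in Plin4 to 0.04 ± 0.10 in Nr3c1 (log2, male minus female). None passed in the test of genotype by sex either, where 0.0109% of all genes did (2 of 18295). The interaction was most negative for Plin4, at -2.62 ± 1.28 (log2, edgeR adjusted p = 0.920). Of the members, 0 of the 10 had an unadjusted p under 0.05 in either edgeR test. Over all 18295 genes, 533 had one by sex and 874 by genotype by sex. In both tests DESeq2 and limma voom called 0 members. Over all genes DESeq2 called 5 by sex and 20 by genotype by sex, and limma voom called 0 and 2. No member passed either test without mouse 702, without mouse 886 or without both. Over the whole table, 10 of 18513 genes passed by sex in edgeR without mouse 702.

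Across the 12 mice, with the genotype mean subtracted, the 36 pairs among the 9 induced genes had a median Pearson's r of 0.76 on log2 CPM, from 0.37 (Fkbp5 and Per1) to 0.96 (Mt1 and Mt2). Without mouse 886 the median was 0.32 and the range -0.67 to 0.96, so much of the common co-variation of the 9 genes came from 1 mouse. The rule for the genes names their co-variation, the values share library depth, and no p-value is given. After these values were seen, 3 groups of genes were named that had positive correlations within them among the 11 mice.

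Tsc22d3, Per1, Sgk1 and Pdk4 formed the first group, with 6 pairs at r of 0.76 to 0.96 without mouse 886 and Spearman's rho of 0.78 to 0.95. After leaving out the 2 further mice farthest from the median, r lay between 0.72 and 0.92. In Tsc22d3, Per1 and Sgk1 the 3 highest mice were 886, 649 and 917, and the 4 lowest were 702, 884, 885 and 914. Fkbp5, Zbtb16 and Plin4 formed the second group, with r of 0.53 to 0.73 and rho of 0.35 to 0.58 among 11 mice, and with r of 0.19 to 0.56 after 2 further mice were left out. Mt1 and Mt2 had r = 0.92 and rho = 0.92 among 11 mice.

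Between the first and the second group the median r was 0.70 with 12 mice and 0.01 with 11. Fkbp5 went against the metallothioneins, at r = -0.67 with Mt1 and -0.61 with Mt2 among 11 mice, although mouse 886 was highest in all of them. With the first group Mt2 had r of 0.36 to 0.77 and Mt1 r of 0.17 to 0.61. The receptor gene Nr3c1 had negative correlations with all 9 induced genes over 12 mice, from -0.68 to -0.24, and r of -0.25 to 0.34 without mouse 886.

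**Figure D4:**
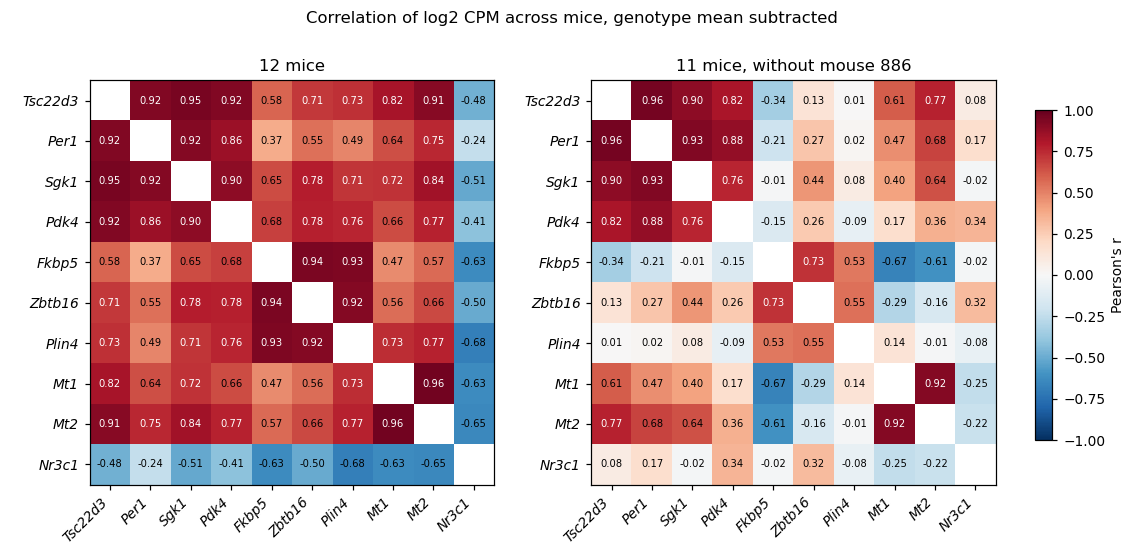
Pearson's r between genes across mice on log2 CPM with the genotype mean subtracted, for 12 mice (left) and for the 11 mice without mouse 886 (right). All pairs of induced genes are positive on the left, with a median of 0.76, whereas on the right the block of Tsc22d3, Per1, Sgk1 and Pdk4 and the pair Mt1 and Mt2 stand out.

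Other genes that glucocorticoids are known to induce were taken from a list of 26, of which 25 were tested. The list, like the other gene lists here, was written with earlier results of these data known. None of the 25 passed the genotype test in edgeR or limma voom, which called 0.94% and 2.85% of all genes. An unadjusted edgeR p under 0.05 was seen in 3 (14.9% of all genes). DESeq2 called 2 (Cd163 and Cebpd), against 4.54% of all genes. Of the 25, 16 had positive and 9 negative differences. Their median difference was 0.13 (log2) and -0.10 without mouse 886. Mouse 886 was the highest of 12 in 14 of the 25 genes, or 56%, against 13.1% of all genes. It was lowest in 1 (12.3% of all genes), Angptl4, an inhibitor of lipoprotein lipase named after its values were seen.

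Cd163, the haemoglobin scavenger receptor of macrophages, had 16.8 CPM in mouse 886 and 0.937 to 3.73 CPM in the other 11 mice. Its genotype difference was 1.48 ± 0.49 (log2, edgeR adjusted p = 0.169) and 0.70 ± 0.28 without mouse 886. The summed CPM of 8 macrophage markers was 167 in that mouse and 154 to 269 over the 12 mice. All 8 had negative genotype differences, and 5 had an unadjusted edgeR p under 0.05 (14.9% of all genes). In edgeR 1 of the 8, the complement gene C1qb, passed at -0.71 ± 0.12 (edgeR adjusted p = 0.014), against 0.94% of all genes. DESeq2 called 3 (C1qb, C1qc and Csf1r) and limma voom 2, against 4.54% and 2.85% of all genes. Mertk, a receptor for the uptake of dying cells, had 59.7 CPM in mouse 886 and 22.1 to 36.3 in the others. Fam107a, a stress-induced actin-binding protein, had 30.8 CPM in mouse 886 and 18.4 in the next, mouse 917. Cebpd, a transcription factor of the acute phase, did not follow them, with its highest value of 104 CPM in Nf2 mouse 649 and a difference of -0.64 ± 0.18 (log2, edgeR adjusted p = 0.111).

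Hif3a, a hypoxia-inducible factor chosen after its values were seen, had 37.0 CPM in mouse 886 and 12.4 in the next, Nf2 mouse 918, which was also second for Zbtb16. Against the mean z score of the 9 induced genes, the 25 genes had a median r of 0.74 over 12 mice and 0.47 over 11. The 15311 named genes outside the members had medians of -0.00082 and -0.0093. This comparison is a description, because both the members and the list were chosen with earlier results known. Bcl6, Mfsd2a, Slc10a6 and Klf15, also named after their values were seen, had r of 0.76 to 0.87 without mouse 886.

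**Figure D5:**
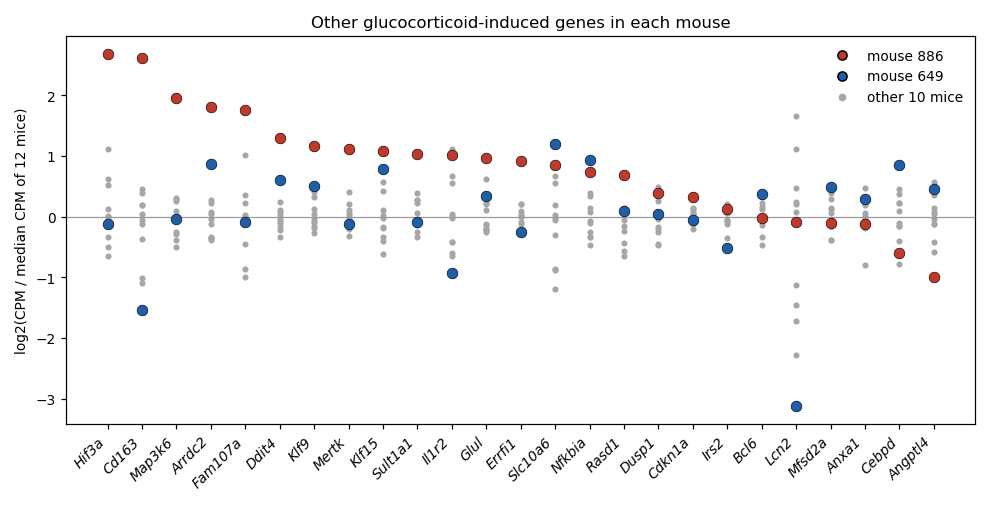
Level of each of the 25 other glucocorticoid-induced genes in each mouse as log2 of CPM over the median of the 12 mice, ordered by the value in mouse 886 (red), with mouse 649 in blue and the other 10 mice in grey. Mouse 886 is the top point for 14 genes, and it lies below all others for Angptl4.

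Genes of the receptor's machinery (heat shock proteins, co-chaperones, co-activators and co-repressors, and the enzymes that regenerate or inactivate corticosterone) numbered 19. The 1 gene of these that passed, against 0.94% of all genes, was Med1, a subunit of the Mediator complex, at 0.29 ± 0.06 (log2, edgeR adjusted p = 0.043). Without mouse 886 its difference was also 0.29 and its edgeR adjusted p was 0.070. Bag1, a co-chaperone that restrains the receptor, had -0.22 ± 0.10 (edgeR adjusted p = 0.297). Hsd11b1, which regenerates active hormone inside cells and was named after its values were seen, had 3.70 CPM in mouse 886 and at most 2.54 in the other mice. Of 10 inflammatory genes known to be repressed by glucocorticoids, 9 were tested, with a median difference of -0.12 (log2). None passed in edgeR (4 at an unadjusted p under 0.05, against 14.9% of all genes). DESeq2 and limma voom, at 4.54% and 2.85% of all genes, called 1 (Ccl2) and 0 of the 9, but DESeq2 gave no adjusted p for Tnf. Ccl2, a monocyte chemokine, had its lowest value, 1.58 CPM, in mouse 886 and 4.22 to 9.90 CPM in the others.

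None of the 15 paralogs tested passed in edgeR (7 at an unadjusted p under 0.05, against 14.9% of all genes). DESeq2 and limma voom called 1 each, against 4.54% and 2.85% of all genes. The median difference of the paralogs was 0.05 (log2), and mouse 886 was highest in 2 of them (13.1% of all genes). Per2 and Per3 are also in the clock list below. Mt3, the metallothionein of neurons, named after its values were seen, was highest in mouse 649 at 159 CPM. Of 8 genes of metal handling none passed in edgeR (1 at an unadjusted p under 0.05), and mouse 886 was highest in 2 (13.1% of all genes). Of 14 fasting targets of FOXO and PPAR factors none passed in edgeR (3 at an unadjusted p under 0.05), and mouse 886 was highest in 5 (13.1% of all genes), of a list that shares Klf15, Angptl4 and Irs2 with the induced genes above. Of 8 immediate early genes, which rise within minutes of handling, none passed in edgeR (3 at an unadjusted p under 0.05), all 8 differences were negative, and mouse 886 was highest in none. The share of all genes at an unadjusted p under 0.05 was 14.9% beside each of these last 3 lists, in which DESeq2 and limma voom called 0 genes.

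Clock genes bear on Per1, and the time of day at which each mouse was killed is not given in the sources used here. Of 15 clock genes none passed by genotype in edgeR, 6 had an unadjusted p under 0.05 (14.9% of all genes), and DESeq2 called 4 and limma voom 2 (4.54% and 2.85% of all genes). Mouse 886 was highest in 6 (13.1% of all genes). Hlf, an output gene of the clock, had 39.0 CPM in mouse 886 and 33.9 in mouse 917, with a genotype difference of 0.82 ± 0.18 (log2, edgeR adjusted p = 0.055) and of 0.67 ± 0.16 without mouse 886. Per3 and Per2 had their 2 highest values in mice 917 and 886. Arntl, a clock activator named after its values were seen, had its 3 lowest values in mouse 917 (7.60 CPM), mouse 886 (8.18 CPM) and mouse 649 (9.58 CPM), the same 3 mice in which Per1 was highest, and 13.6 to 25.7 CPM in the other 9. The part of the hour of collection in the levels of Per1, Tsc22d3, Sgk1 and Pdk4 was not tested.

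The genes outside the members that were most alike to them were, in order of Pearson's r with the mean z score of the 9 induced genes over 12 mice, Tns2, Bcl2l1, Fth1, Klf9, Ddit4, Ip6k2, Map3k6 and Slc2a1, at r of 0.96 to 0.93. Mouse 886 was highest in all 8. The ranking favours such genes, and at its other end genes low in this mouse, because mouse 886 was highest in all 9 induced genes. Klf9, a Krüppel-like factor, had 209 CPM in mouse 886 and 77.3 to 132 in the others, and Ddit4, an inhibitor of mTORC1, had 185 CPM against 60.0 to 114. Slc2a1, the glucose transporter GLUT1, had 160 CPM in mouse 886 and 76.8 to 95.9 in the others. Fth1, the ferritin heavy chain, had 3251 CPM against 1488 to 2186. Without mouse 886 these 8 genes had r of 0.59 to 0.86, and none of them was among the 8 most alike over the 11 mice. The most opposite were Micall2, Elf5, Ly6g6f and Ier5, at r of -0.96 to -0.92, each lowest in mouse 886, with Micall2 at 11.5 CPM in that mouse and 21.5 to 48.0 in the others.

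Markers of other cell types moved with mouse 886 in several cases. The 7 endothelial markers summed to 172 CPM, the highest of the 12 (97.4 to 145 in the others). Of the 7, 3 were highest in that mouse, which was highest in 13.1% of all genes. The 5 fibroblast markers summed to 1201, the lowest of the 12, and they split. Col1a1, Col1a2 and Lum were lowest of the 12 in that mouse, at 94.4, 260 and 55.8 CPM, whereas Pdgfra and Dcn were highest, at 45.8 and 745 CPM. The 6 Schwann cell markers (4984) and the 3 satellite glia markers (98.7) were also lowest in mouse 886. The 11 skeletal muscle markers ran from 16.1 to 1101 CPM in Nf2 mice and summed to 25.0 in mouse 886, the lowest of the DKO mice (63.8 to 348 in the other 5). In mouse 649 the 3 erythroid markers summed to 33.4 CPM, the lowest of the 12, and the 8 sensory neuron markers to 10410, the highest. The 4 mural markers summed to 165 CPM in mouse 886, within the range of the others (112 to 191), and 2 of the 4 were highest there, Acta2 at 18.3 CPM and Myh11 at 11.7 CPM. The mitochondrial share of counts was 2.20% in mouse 886 and 4.45% in mouse 649, in a range of 1.99% to 5.60%. The part of cell composition in the levels of the members was not tested.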

How the data were processed

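The authors deposited a table of raw counts per gene for bulk DRG RNA of 12 mice, made per the submitters' processing notes with Trimmomatic 0.36, STAR 2.5.2b and featureCounts of Subread 1.5.2 on GRCm38. Strand and multiple-match settings are not given in the sources used here. The members and gene lists were chosen with earlier results of these data known. CPM is the count per 1000000 counts of the library. Genotype, sex and their interaction were fitted over 18295 genes (filterByExpr) with edgeR 4.0.16 (TMM, quasi-likelihood F test, Benjamini-Hochberg), with DESeq2 1.42.0 and limma 3.58.1 voom as alternatives, together with other scalings, filters, covariates and leaving out each mouse. Replicates are separate mice, and no 2 libraries agreed within sampling noise. The genotype fits were tested on simulated counts with 200 genes changed. At a 1.5-fold change, false calls were 4.31% of all calls with edgeR, 4.42% with limma voom and 17.1% with DESeq2. At a 2-fold change they were 4.40%, 2.70% and 15.8%. Genes called by DESeq2 alone are therefore less certain. Correlations used TMM-scaled log2 CPM with a prior count of 2. Positions are from GENCODE M21. Named were all members, up to 4 genes of each list by genotype p, any gene of the receptor and induced lists that passed, and the 8 genes most alike and 4 most opposite to the members, with others named as seen afterwards.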

Additional observations from a re-analysis of the deposited data

Results flagged for a closer look

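In 20 groups (each of the 10 genes in each genotype, on TMM-scaled log2 CPM) the distance of the extreme mouse from its nearest neighbour was divided by the range of the 6 mice. In 5 of these groups the share was above the critical value for 6 samples, where chance gives about 1 in 20 for independent groups chosen blind. That rate does not apply here, since the genes were chosen with these levels known and 4 of the 5 groups share mouse 886 in genes that vary together. In DKO mice, mouse 886 was the far value at 0.697 of the range for Fkbp5, 0.708 for Zbtb16, 0.85 for Plin4 and 0.634 for Mt2. In Nf2 mice, mouse 918 was the far value for Zbtb16 at 0.646 of the range, with 15.9 CPM against 8.15 in the next Nf2 mouse, 1049.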

How the results depend on the processing

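No member passed the genotype test in any of 24 alternatives, or the sex or interaction test in any of 20 each. In the DESeq2 alternative by genotype, Plin4 and Zbtb16 had no adjusted p and could not be called. The count of all genes called by genotype (172) was within 1.5-fold in 11 of 24 alternatives. It was 831 with DESeq2, 521 with limma voom, 297 with the adipocyte marker level and 101 with the skeletal muscle marker level as covariate, 57 in females alone, 2 in males alone and 81 to 217 without 1 mouse, lowest without Nf2 mouse 918. For sex (3 genes) the count was 5 with DESeq2 and with no low-count filter, 0 with limma voom and at a minimum of 1 CPM in 6 mice, and 0 to 10 without 1 mouse, highest without mouse 702. Without mice 702 and 886 together, chosen after the data were seen, it was 6. For genotype by sex (2 genes) it was 20 with DESeq2, 6 with no low-count filter, 2 to 6 without 1 mouse and 5 without mice 702 and 886 together. The median r among the 9 induced genes was 0.57 with Spearman's rho in place of Pearson's r and 0.32 to 0.83 without 1 mouse, lowest without mouse 886. Of the 8 genes most alike, 4 were shared with Spearman's rho and 0 to 8 without 1 mouse, with 0 without mouse 886 and 5 without mouse 649 or mouse 917. Males alone, here and above, were taken by label and included mouse 702. Member differences moved by over 1 SD of the Nf2 mice in 20 of 250 cases, 5 of them without mouse 886 and 6 in males alone. The cause was not tested. No paired analysis was possible because mouse numbers are not shared between the genotypes. The lowest counts among the members were those of Zbtb16 (126 reads) and Plin4 (154 reads). The SE of their genotype differences (log2, edgeR) was 0.55 and 0.77 with 12 mice, and 0.27 and 0.19 without mouse 886.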
